A study of Mus musculus with 9 samples.

Results

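The comparison described here set mouse TtT/GF cells exposed to NECA for 30 min against untreated TtT/GF cells, across every probe set of an expression array. Its members were chosen by the titles and agent labels and are 6 of the 9 arrays of the series: 3 arrays of untreated cultures and 3 of cultures given 10 µM NECA for 30 min. TtT/GF is a single cell line derived from mouse pituitary folliculostellate cells, and all groups were grown with 2% heat-inactivated fetal bovine serum. The labels name no vehicle and no untreated culture collected at the later time, so exposure to NECA cannot be told apart from handling at the time of addition. The other 3 arrays, of cells given the same dose for 120 min, entered the fit that estimates the spread and are quoted beside some genes.

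NECA, 5'-N-ethylcarboxamidoadenosine, is an analog of adenosine that activates adenosine receptors. Receptors of this family that couple to the G protein Gs raise cyclic AMP, which activates protein kinase A; the kinase phosphorylates the transcription factor CREB on the promoters of early response genes. Early response genes are transcribed within minutes of a stimulus without new protein synthesis, and many encode transcription factors or short-lived regulators of signalling. Folliculostellate cells are the agranular cells of the anterior pituitary, coupled to each other by gap junctions, and a known source of interleukin 6.

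Each probe set of the MG_U74A v2 GeneChip has 1 MAS5 signal per array, in arbitrary linear units. Changes are differences of log2(signal + 7.93) between group means, given with their standard error (SE), and folds on this scale understate changes of dim genes. Of 12422 probe sets that are not controls, 7851 were bright enough to be tested, for 5897 named genes. In the limma fit with Benjamini-Hochberg adjustment, 28 probe sets were higher after 30 min at an adjusted p below 0.05, which is 0.357% of those tested. They stand for 25 named genes and 1 probe set, 104646_at, with no single gene symbol. No probe set was lower (0%), while 369 were lower and 304 higher at an unadjusted p below 0.05. On signals scaled by quantiles the unadjusted counts were 385 higher and 282 lower, and after scaling to equal medians 438 higher and 260 lower, so which direction was more frequent at that level depended on the scaling.

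**Figure D1:**
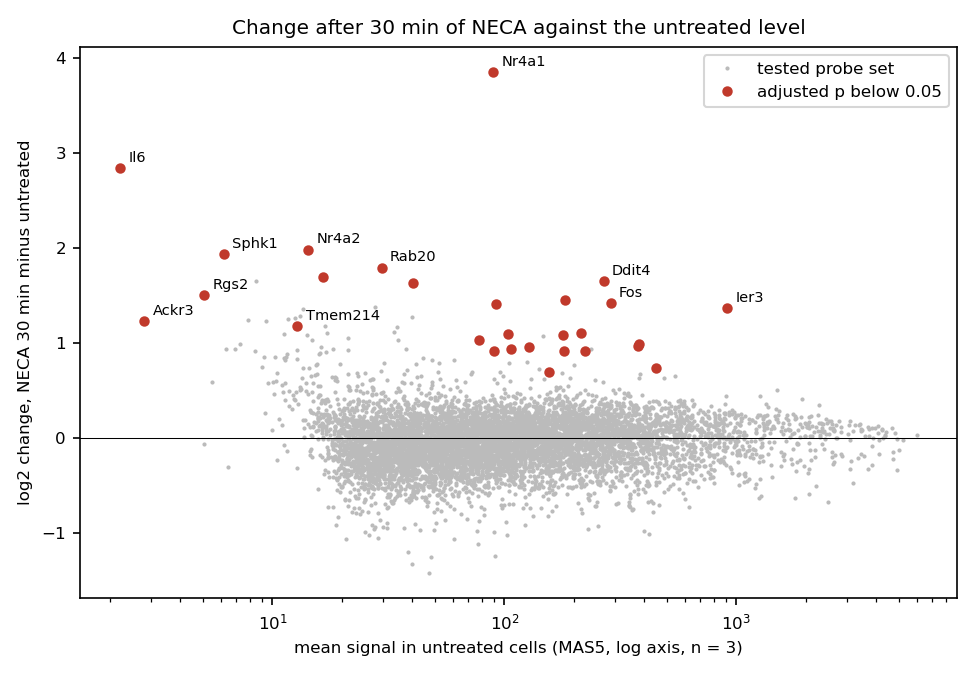
Change at 30 min (log2, treated minus untreated, vertical axis) against the mean signal of the untreated arrays (log axis) for the 7851 tested probe sets, with the probe sets that passed the test coloured. The 28 that passed all lie above 0, at untreated signals from 2.21 (Il6) to 914 (Ier3), while tested probe sets reach 6015.

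The arrays were compared first. MAS5 had scaled all arrays alike, with a 2% trimmed mean of 100.1 on each. The median signal lay between 36.3 and 38.3 in untreated cultures and between 34.0 and 35.7 after NECA. The ratio of 3' to 5' Gapdh signal, which reflects the integrity of the RNA, was 0.964 to 1.02 in untreated cultures and 0.879 to 0.955 after NECA, so neither quantity overlapped between the groups. With 3 arrays in each group an exact permutation test cannot give a p below 0.1. With the ratio as a covariate in the fit 5 probe sets remained higher, those of Nr4a1, Il6, Ier3 and Ddit4 and 1 of the probe sets of Nr4a2. The other 23 no longer passed, while their median change was 1.09 with the covariate as without it and their median SE went from 0.16 to 0.24. Their changes with the covariate lay between 0.61 and 1.89, and 6 of the 23 were at least as large as without it. The treated arrays were less alike (correlations of 0.947 to 0.969 across probe sets) than the untreated ones (0.974 to 0.978). NECA replicate 3 had 4.67% of tested probe sets more than 2-fold away from the untreated mean, replicate 1 had 1.97% and replicate 2 had 1.03%. The 28 called probe sets rose by a median of 1.17, 1.18 and 1.33 on the log2 scale in NECA replicates 1, 2 and 3. RNA came from whole cultures, so a larger share of responding cells and more RNA per cell cannot be told apart.

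The labelled cell type was checked on 8 folliculostellate markers. Among them, the annexin gene Anxa1 had a signal of 2102, the cystatin gene Cst3 2026 and the gap junction gene Gja1 1135 in untreated cells, while S100b, the classical marker, had only 57.8 and Gfap 31.5. Vim at 17.5, Fst at 6.09 and Fgf2 at 1.41 were too dim to be tested. The summed signal of the 8 was 5135 to 5516 in untreated and 5281 to 5580 in treated cultures, and none of the 8 passed the test, Gfap being at -0.73 with its arrays apart. The sum is carried by the bright genes. A longer list of 22 folliculostellate genes, of which 13 were tested, had 1 that rose, Il6. Markers of pituitary hormone cells summed over 7 genes to 298 to 325 in untreated and 247 to 310 in treated cultures, with the prolactin gene Prl at -0.60 and its arrays apart. The 6 endothelial markers summed to 44.2 to 55.6 and to 47.9 to 53.1. The 8 markers of macrophages and leukocytes summed to 846 to 882 and to 908 to 1073, mostly from Cd68 (408 in untreated cells) and Cd14 (360), whereas Ptprc at 2.29, Itgam at 3.55 and Adgre1 at 6.01 were among the dimmest. Of these markers of other cell types, only some were bright enough to be tested. They were 5 of the 7 hormone cell genes, 1 of the 6 endothelial and 3 of the 8 macrophage and leukocyte genes. None of those tested passed. The part of the shift in the macrophage sum, whose groups did not overlap, in any result was not tested.

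The promoters of 6 of the genes that rose are shown as examples. They hold the core of the cAMP response element, the sequence that CREB binds. The 6 were picked without a set rule from 13 genes that rose and hold this core. RefSeq windows from 250 bases before to 50 after the annotated start (GRCm38.p6) were matched for 21 of the 25 named genes. The stretches lie before the start and are printed 5' to 3' on the strand of the gene, with the core TGACG, or CGTCA for the other strand, in capitals. Their positions are Nr4a1 chr15:101266596-101266845 (forward strand), Nr4a2 chr2:57124084-57124223 (reverse strand), Fos chr12:85473740-85473879 (forward strand), Rgs2 chr1:144004190-144004349 (reverse strand), Il6 chr5:30012954-30013013 (forward strand) and Slc25a25 chr2:32424177-32424236 (reverse strand).
Nr4a1: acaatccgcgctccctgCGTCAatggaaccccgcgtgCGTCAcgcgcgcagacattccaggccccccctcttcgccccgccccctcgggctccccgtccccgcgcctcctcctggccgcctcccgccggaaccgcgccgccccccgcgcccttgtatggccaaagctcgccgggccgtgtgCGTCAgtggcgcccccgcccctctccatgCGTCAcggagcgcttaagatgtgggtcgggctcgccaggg
Nr4a2: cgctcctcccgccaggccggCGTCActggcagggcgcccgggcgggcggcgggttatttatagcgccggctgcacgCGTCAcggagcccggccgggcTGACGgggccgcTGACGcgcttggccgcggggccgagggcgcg
Fos: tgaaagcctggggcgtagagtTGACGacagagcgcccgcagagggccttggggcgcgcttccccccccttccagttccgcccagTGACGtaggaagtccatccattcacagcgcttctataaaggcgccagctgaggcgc
Rgs2: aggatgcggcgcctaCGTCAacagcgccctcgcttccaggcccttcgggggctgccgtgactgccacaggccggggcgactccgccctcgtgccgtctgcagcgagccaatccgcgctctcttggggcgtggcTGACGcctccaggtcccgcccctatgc
Il6: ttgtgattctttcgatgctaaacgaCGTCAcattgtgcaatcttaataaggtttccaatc
Slc25a25: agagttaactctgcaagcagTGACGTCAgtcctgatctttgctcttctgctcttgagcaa

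The full palindrome TGACGTCA was found in the window of 1 gene, the mitochondrial carrier gene Slc25a25, which is 4.76% of the 21, against 3.45% of 4757 tested genes with a window and 2.03% of all 27025 genes with one. The shorter core TGACG, counted on either strand and including matches within the palindrome, was present in 13 of the 21 (61.9%), against 36.5% of tested and 23.0% of all genes. Counted per window, since some genes have several, it was in 14 of 32 (43.8%), against 31.3% of the windows of tested genes. Nr4a1 and Nr4a2 each had 4 copies in the stretches shown, Fos and Rgs2 had 2, and Il6 had 1. The box TATAAA was present in 6 of the 21 (28.6%), against 10.0% of tested genes. The CArG box, the sequence bound by serum response factor, was searched as CCWWWWWWGG, with W for A or T, within these windows only. It was found in none of the 21 genes and in 1.79% of tested genes with a window. Boxes outside the window or with other letters were not counted. A match describes the letters of the window and does not show that a factor binds there.

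Transcriptional regulators are described first, and the genes are ordered here by role, not by a list with a count. Counts within families can be set against 24 rises and 0 falls among all 5897 tested named genes, each on its brightest probe set. Nr4a1, an orphan nuclear receptor gene of the early response, had signals of 87.2, 82.6 and 98.6 in the untreated cultures and 1333, 1377 and 1495 in the NECA cultures. All treated arrays lay far above all untreated arrays, and the mean moved from 89.5 ± 8.25 to 1402 ± 83.7 (SD, n = 3 each). The change was 3.86 ± 0.16 on the log2 scale (SE), 14.5-fold, with an adjusted p of 2.03e-07. Its relative Nr4a2 was read by 2 probe sets, both of which rose. Probe set 92248_at had signals of 12.8, 14.7 and 15.3 in the untreated cultures and 81.2, 95.0 and 65.6 in the NECA cultures, and 92249_g_at had signals of 19.5, 15.6 and 14.5 in the untreated cultures and 68.9, 70.5 and 74.5 in the NECA cultures. The groups were apart on both, with changes of 1.98 ± 0.17 (adjusted p = 0.000164) and 1.70 ± 0.16 (adjusted p = 0.00025). All 3 untreated arrays of both Nr4a2 probe sets lay at or below the filter signal of 20.5, so these were tested only because of their treated values. The other 20 tested nuclear receptor genes did not pass, and the one with the next smallest p, Esrra, an orphan receptor gene of energy metabolism, was at -0.21.

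Fos, which encodes a subunit of the AP-1 transcription factor, had signals of 354, 243 and 263 in the untreated cultures and 715, 757 and 849 in the NECA cultures. The groups were apart and the change was 1.42 ± 0.15 (adjusted p = 0.000916). A second Fos probe set, 161716_at, was too dim to be tested, with means of 12.8 ± 1.47 and 11.5 ± 1.29 (SD, n = 3 each). Junb, the gene of another AP-1 subunit, rose on both of its probe sets, from 215 ± 14.7 to 473 ± 65.4 on 102362_i_at and from 179 ± 14.8 to 389 ± 47.6 on 102363_r_at (SD, n = 3 each). Their changes were 1.11 ± 0.17 (adjusted p = 0.0133) and 1.08 ± 0.16 (adjusted p = 0.00939), with no overlap of the arrays. Atf3, a stress-inducible factor of the ATF family, had signals of 159, 144 and 162 in the untreated cultures and 247, 259 and 261 in the NECA cultures on probe set 104155_f_at and changed by 0.69 ± 0.12 (adjusted p = 0.0307). Its probe set 104156_r_at was at 0.62 without passing (adjusted p = 0.213), also with its groups apart, and a further one, 161645_r_at, was too dim to be tested. Ier2, an immediate early gene whose product acts in the nucleus, changed by 0.73 ± 0.13, from 452 ± 25.3 to 759 ± 88.1 (SD, n = 3 each; adjusted p = 0.0307). Fos was called whichever single array was left out. Leaving out untreated replicate 1 or 2 ended both Junb calls, and leaving out NECA 30 min replicate 3 ended that on 102362_i_at (adjusted p up to 0.0976). Ier2 was kept only without NECA 30 min replicate 2 and lost without any other array (up to 0.223), and Atf3 was kept only without that array or NECA 120 min replicate 1 (up to 0.232).

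Cebpd and Bcl3 encode transcriptional regulators of inflammatory genes. Cebpd, of the CCAAT/enhancer binding protein family, had signals of 403, 346 and 395 in the untreated cultures and 748, 642 and 935 in the NECA cultures. It rose by 0.99 ± 0.14 (adjusted p = 0.00939), and leaving out untreated replicate 2 ended the call (adjusted p = 0.0743). The family member Cebpb, with means of 546 and 868, was at 0.65 without passing. Bcl3, an unusual IkB protein that works in the nucleus with NF-kB, had signals of 55.1, 43.3 and 22.7 in the untreated cultures and 168, 128 and 116 in the NECA cultures. Untreated arrays of Bcl3 varied more than those of most genes named here, yet the highest, 55.1, lay below the lowest treated array, 116, and the change was 1.63 ± 0.24 (adjusted p = 0.00939). Of the 12 tested genes of the NF-kB and IkB list Bcl3 alone passed. Ikbkg, the regulatory subunit of the IkB kinase, was at -0.51 (adjusted p = 0.277), and its other tested probe set was at -0.13.

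Among the 20 tested genes of basic helix-loop-helix factors and Id proteins 4 rose, 0 fell and 16 did not pass, with a median of 0.07. Among all 5897 tested named genes 24 rose and 0 fell, with a median of -0.03. Id proteins bind helix-loop-helix factors and keep them from DNA. Id2 had signals of 209, 175 and 161 in the untreated cultures and 309, 361 and 380.0 in the NECA cultures and rose by 0.92 ± 0.14 (adjusted p = 0.0133). Id3 had signals of 326, 387 and 414 in the untreated cultures and 725, 659.7 and 853 in the NECA cultures and rose by 0.97 ± 0.16 (adjusted p = 0.0205). In both genes the treated arrays all exceeded the untreated ones. Id1, with means of 384 ± 8.39 and 625 ± 116 (SD, n = 3 each), was at 0.68 without passing (adjusted p = 0.0936), again without overlap. Bhlhe40, a repressor that also acts in the circadian clock, had signals of 109.8, 92.0 and 110.5 in the untreated cultures and 221, 241 and 229 in the NECA cultures, a rise of 1.09 ± 0.14 (adjusted p = 0.00386). Hes1, a repressor best known as a Notch target, had signals of 82.0, 98.1 and 91.5 in the untreated cultures and 187, 165 and 182 in the NECA cultures, a rise of 0.92 ± 0.14 (adjusted p = 0.0133). Bhlhe40 was called whichever single array was left out. The call of Id2 ended when untreated replicate 2 or 3 was left out (adjusted p up to 0.0944), that of Id3 when NECA 30 min replicate 1 or 3 or untreated replicate 1 or 2 was (up to 0.143), and that of Hes1 when NECA 30 min replicate 1 or any one of the untreated arrays was (up to 0.102). Without single arrays the count of the list therefore ranged from 1, without untreated replicate 2, to 5, and it was 2 without NECA 30 min replicate 1 or untreated replicate 1 or 3. With the Gapdh ratio as a covariate it was 0, with Bhlhe40 at 1.11, Hes1 at 1.00, Id3 at 0.88 and Id2 at 0.61.

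**Figure D2:**
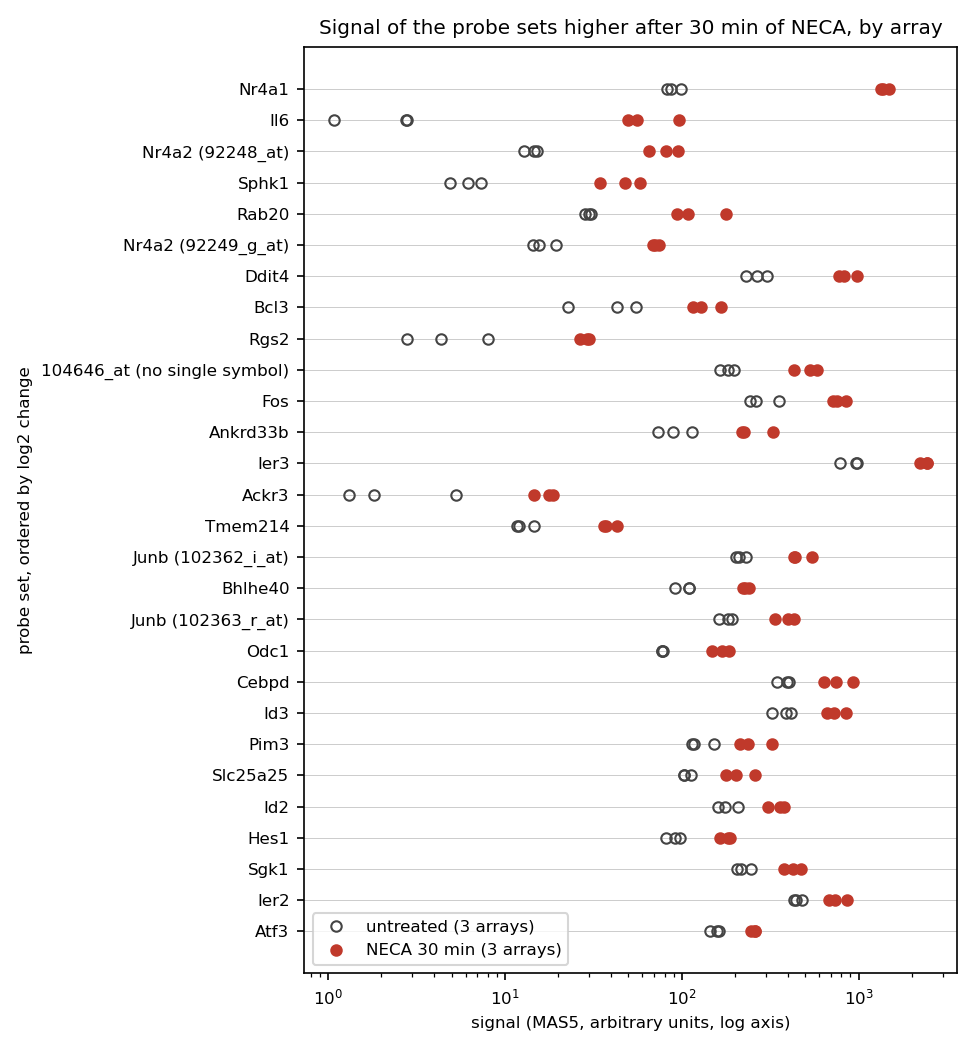
Signal of the called probe sets on each of the 6 arrays (log axis, arbitrary units), with open and filled points for the untreated and the NECA 30 min arrays. In all 28 rows every treated point lies to the right of every untreated point, and the distance is widest for Nr4a1 and Il6.

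Of the secreted proteins and receptors, 2 genes rose. Il6, the cytokine interleukin 6, had signals of 2.79, 1.08 and 2.76 in the untreated cultures and 49.9, 96.6 and 55.9 in the NECA cultures. The untreated signals were at the dim end of the array and the treated ones were above it in every culture, while they differed among themselves by nearly as much as their smallest value. The change was 2.85 ± 0.22, 7.20-fold (adjusted p = 0.000136). All untreated arrays of Il6 lay below the filter signal of 20.5, so the gene was tested only because of its treated values. Of 14 tested interleukin and interleukin receptor genes no other passed; Il9, a T cell cytokine, was at -0.46. Ackr3, an atypical chemokine receptor that scavenges chemokines, had signals of 1.32, 1.83 and 5.27 in the untreated cultures and 17.8, 14.6 and 18.8 in the NECA cultures. Its treated arrays lay above the untreated ones but below the filter signal of 20.5, and the gene was tested because of the 120 min arrays, which had 57.0 ± 6.14 (SD, n = 3). Ackr3 rose by 1.23 ± 0.22 (adjusted p = 0.0412), a call that was kept only without untreated replicate 3 or NECA 30 min replicate 2 and lost without any other single array (adjusted p up to 0.195). The other 15 tested chemokine and chemokine receptor genes did not pass, among them the neutrophil chemokine gene Cxcl1, which was bright in untreated cells (mean of 1927) and at 0.41.

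Regulators of signalling formed the next group. Ier3, an immediate early gene that modulates cell survival, was the brightest called gene in untreated cells, with signals of 789, 983 and 971 in the untreated cultures and 2449, 2214 and 2437 in the NECA cultures. Its groups were well apart and the change was 1.37 ± 0.12 (adjusted p = 0.000164). Ddit4, an inhibitor of the growth kinase complex mTORC1, had signals of 267, 232 and 305 in the untreated cultures and 826, 773 and 977 in the NECA cultures, a rise of 1.65 ± 0.14 (adjusted p = 0.000164). Sgk1, a kinase activated downstream of mTORC2, had signals of 245, 205 and 216 in the untreated cultures and 379.6, 426 and 471 in the NECA cultures, a rise of 0.91 ± 0.13 (adjusted p = 0.00939). No array of Ddit4 or Sgk1 overlapped between the groups. These were 2 of 19 tested genes of mTOR and energy sensing, of which 0 fell; Tsc2, which restrains mTORC1, was at -0.40 without passing. Leaving out untreated replicate 2 or 3 ended the call of Sgk1 (adjusted p up to 0.0860).

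Rgs2, which shortens G protein signalling, had signals of 2.81, 4.37 and 8.01 in the untreated cultures and 26.7, 29.1 and 29.9 in the NECA cultures. The untreated arrays were all at 8.01 or below and the treated ones close together, with a change of 1.51 ± 0.20 (adjusted p = 0.00417). It alone passed among 7 tested RGS genes, and Rgs3, at -0.45, had the next smallest p. Sphk1, which makes the lipid messenger sphingosine 1-phosphate, had signals of 6.23, 7.37 and 4.90 in the untreated cultures and 48.1, 34.3 and 58.0 in the NECA cultures, a rise of 1.94 ± 0.22 (adjusted p = 0.00158). No other of 14 tested sphingolipid enzymes passed, and Ugcg, the first enzyme of glycosphingolipid synthesis, was at -0.46. Rgs2 and Sphk1 had all untreated arrays below the filter signal. Rab20, a small GTPase of endosomes and phagosomes, had signals of 28.4, 29.7 and 30.7 in the untreated cultures and 109, 179 and 93.5 in the NECA cultures, with a change of 1.80 ± 0.21 (adjusted p = 0.00192). Its treated arrays spread widely and still lay at least 3 times above every untreated one, and the other 26 tested Rab genes did not pass. Pim3, a serine/threonine kinase that promotes survival, had signals of 118, 114 and 153 in the untreated cultures and 237, 215 and 325 in the NECA cultures, a change of 0.96 ± 0.18 (adjusted p = 0.0436). The call of Pim3 was kept only without untreated replicate 3 or NECA 30 min replicate 2 and lost without any other single array (up to 0.287).

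The remaining genes act in metabolism or are less well known. Odc1, the rate-limiting enzyme of polyamine synthesis, had signals of 77.2, 77.7 and 78.1 in the untreated cultures and 170.0, 149 and 185 in the NECA cultures. The untreated arrays differed by less than 1 unit, the treated ones were all higher, and the change was 1.03 ± 0.12 (adjusted p = 0.00192). Slc25a25, a mitochondrial carrier of ATP and phosphate, had signals of 103, 114 and 103 in the untreated cultures and 179, 202 and 259 in the NECA cultures, a rise of 0.94 ± 0.15 (adjusted p = 0.0207). It was the only one of 99 tested solute carrier genes to pass, and its call ended when any one of the untreated arrays was left out (adjusted p up to 0.133). Ankrd33b, an ankyrin repeat gene, had signals of 89.7, 73.1 and 114 in the untreated cultures and 221, 226 and 329.9 in the NECA cultures, a rise of 1.41 ± 0.19 (adjusted p = 0.00582), and the other 10 tested Ankrd genes did not pass. Probe set 104646_at had signals of 166, 183 and 197 in the untreated cultures and 532, 429.5 and 579.5 in the NECA cultures, a rise of 1.45 ± 0.14 (adjusted p = 0.000447). Tmem214, a membrane protein gene, rose on probe set 97400_at from 12.8 ± 1.64 to 39.1 ± 3.69 (SD, n = 3 each), by 1.18 ± 0.19 (adjusted p = 0.0153). Its brighter probe set 162455_f_at had signals of 50.2, 53.7 and 63.0 in the untreated cultures and 55.6, 46.1 and 61.8 in the NECA cultures and was at -0.03 (adjusted p = 0.943), with overlapping groups, so the probe sets of Tmem214 disagreed. The Tmem214 call also ended when any one of the untreated arrays, or NECA 30 min replicate 1 or 3, was left out (adjusted p up to 0.111).

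Several probe sets per gene allowed a comparison of readings within the same RNA. Among the 5897 tested named genes, 992 had at least 2 tested probe sets and 132 at least 3. The changes read by the probe sets of a gene differed by a median of 0.21 on the log2 scale, with a 90th percentile of 0.58, and 14 genes had a range over 1. Across these genes the change on the brightest probe set and on the next correlated with r = 0.27, and with r = 0.41 over the 273 genes with both mean signals above 100; genes are not independent and probe sets of a gene share the array, so these describe the arrays and carry no test. Of the 25 named genes that rose, 21 had only 1 tested probe set and so no second reading. Of the other 4, Nr4a2 and Junb were called on every tested probe set, Atf3 was in the same direction on its second, and Tmem214 was not. Among genes that did not pass, Socs3 was at 1.09 and 0.49 on its probe sets, whereas Usp2 was at 1.38 and 0.09 and Tubb2a at -0.75 and 0.44. Nfyc, which encodes a subunit of a CCAAT-binding factor and was chosen after its values were seen, was at -0.02 and 1.66.

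**Figure D3:**
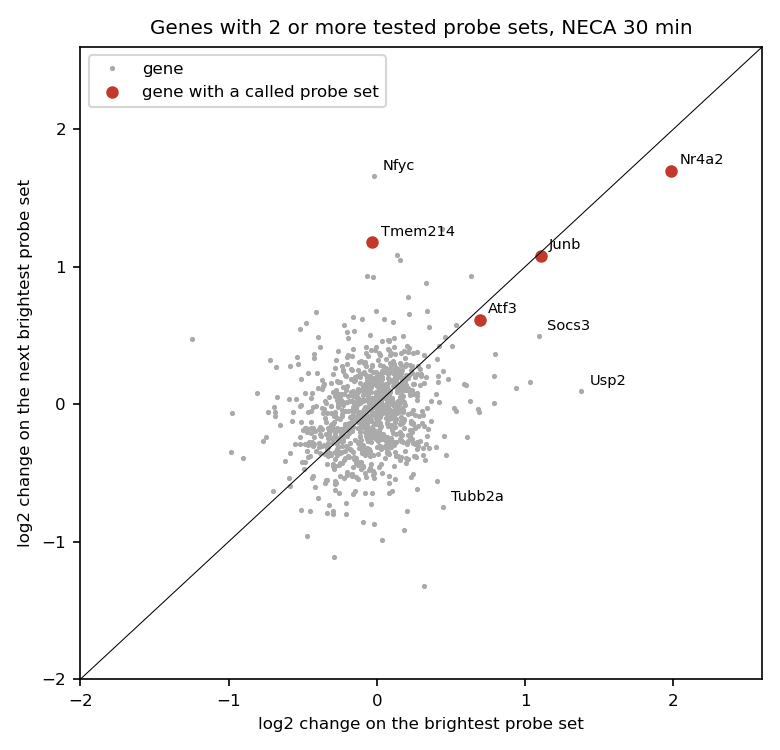
Change at 30 min on the brightest tested probe set of a gene (horizontal, log2) against the change on its next brightest (vertical, log2), 1 point per named gene with at least 2 tested probe sets, with genes that have a called probe set in red and the line of equal change. Most of the 992 points lie close to 0 on both axes, Nr4a2 and Junb lie high on both, and Tmem214 is off the diagonal.

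Named genes just short of the threshold are given as values. Socs3, the feedback inhibitor of interleukin 6 signalling, had signals of 16.0, 7.46 and 10.1 in the untreated cultures and 27.1, 27.2 and 44.7 in the NECA cultures and was at 1.09 ± 0.21 (adjusted p = 0.0592); it passed under 5 of the 19 alternatives, over which its adjusted p ranged from 0.0369 to 0.996. Dgat1, an enzyme of triglyceride synthesis, was at 0.80 (0.0725), Phlda1 at 0.63 (0.0911), the ephrin receptor gene Epha2 at 0.83 (0.104) and Procr, the endothelial protein C receptor, at 0.71 (0.107). The proapoptotic gene Bcl2l11 was at 0.79 (0.112), the deubiquitinase gene Usp2 at 1.38 (0.112), Coil, the marker protein of Cajal bodies, at 1.24 (0.113) and the clock gene Per1 at 0.70 (0.129), with adjusted p-values in parentheses. On these probe sets and on that of Id1 all treated arrays exceeded all untreated ones, as did those of 480 tested probe sets (6.11%). Other tested probe sets were at 0.37 for Dgat1, 0.20 for Bcl2l11 and 0.09 for Usp2, with overlapping groups. That of Socs3 was at 0.49, with its groups apart.

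On the side of lower signals, Ccn2, a matricellular protein gene and a target of the YAP and TEAD factors, had signals of 352, 352 and 329 in the untreated cultures and 202, 254 and 188 in the NECA cultures. The arrays did not overlap, but the value of -0.67 ± 0.14 did not pass (adjusted p = 0.104). Apoa5 was at -1.43 (0.182) on probe set 95728_g_at, with its other probe sets too dim to be tested, and Tubb2a, a beta tubulin gene, at -0.75 (0.201). Znrf2 was at -0.86 (0.223), Taf1b, a factor of RNA polymerase I, at -0.88 (0.277), Six4, a homeobox factor, at -0.69 (0.317), Ncbp2, of the nuclear cap-binding complex, at -0.52 (0.317), Lmx1b at -1.20 (0.331) and Slc25a45 at -1.05 (0.331). Other tested probe sets were at -0.33 and -0.09 for Znrf2 and at -0.40 for Six4, with overlapping groups. That of Tubb2a was at 0.44, with its treated arrays above the untreated ones. In all, 679 tested probe sets (8.65%) had every treated array below every untreated one. Without NECA 30 min replicate 2, 46 probe sets were lower and 39 higher, all 28 among the latter; without untreated replicate 2, 15 were higher and 0 lower. In each of the 46, NECA 30 min replicate 2 lay above both other treated arrays, and in 35 it lay at or above the lowest untreated array. The 46 were selected by leaving that array out, so its place above the others follows in part from the selection.

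The genes were also counted in 83 functional lists, 18 by gene name and 65 by symbol family. These lists were chosen with earlier results of these data known, so their counts and medians are a description and carry no test. Of 19 tested genes known to be induced by cAMP 6 rose, 0 fell and 13 did not pass; the median was 0.68 and 18 were above 0. Of 21 tested immediate early regulators 7 rose, 0 fell and 14 did not pass, with a median of 0.35. Nr4a1, Nr4a2, Fos, Junb and Atf3 are counted among the rises of both lists, so the counts are largely of the same genes. All tested named genes had 24 rises among 5897 on their brightest probe set and a median of -0.03 (0.0053 after quantile normalization). Leaving out single arrays gave 4 to 8 cAMP-inducible genes, with 4 when untreated replicate 1 or 2 was left out, and 4 to 7 immediate early genes, with 4 when NECA 30 min replicate 3 or untreated replicate 1 or 2 was. With only the 6 compared arrays in the fit the counts were 4 and 5. The Gapdh ratio as a covariate brought these counts to 2 and 3, with Rgs2 at 1.70, Fos at 1.17, Junb at 1.09 on 102362_i_at and Atf3 at 0.64 among those that no longer passed. Of the machinery that makes, breaks down and senses cAMP 0 of 27 tested genes passed, their median was -0.02 (0.02 after median scaling), and the phosphodiesterase gene Pde4b was at -0.45. Of the nuclear receptor list 2 passed, and of the clock list 1.

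**Figure D4:**
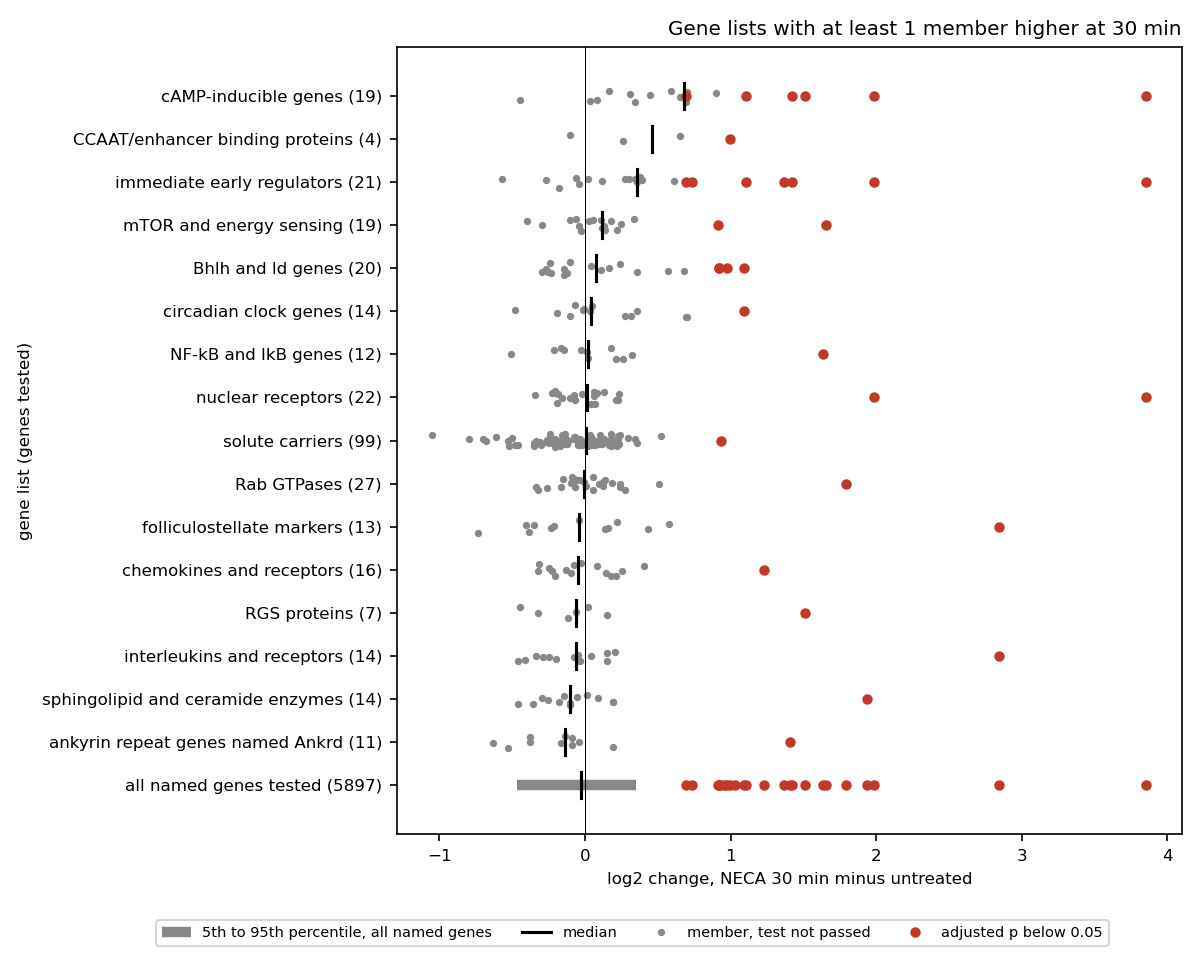
Change at 30 min (log2) of the tested members of the 16 gene lists with at least 1 member that passed, 1 point per gene on its brightest probe set, with the median as a black bar, genes that passed in red and, in the bottom row, the range from the 5th to the 95th percentile of all named genes. The median is 0.68 for the cAMP-inducible genes and near 0 for most other lists, in which 1 gene stands to the right of the rest.

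In 66 further lists with tested genes no gene passed by limma, and the adenosine receptor list had none tested. Of the 66, the list of SOCS and STAT genes had 1 member that passed, Socs3, after quantile normalization (adjusted p = 0.0438) or median scaling (0.0429). Dual-specificity phosphatases, which switch off MAP kinases and are often induced early, were near no change as a family (median of -0.0047 over 8 tested genes, 0.07 after quantile normalization), although Dusp1 had means of 1262 and 1718 and was at 0.45 without passing. Of 10 tested Kruppel-like factors 7 were below 0, with a median of -0.19; Klf4 was at 0.61 and Klf6 at -0.57, neither passing. Prostaglandin genes had 0 of 16 passing, and Ptgs2, the inducible cyclooxygenase, was at 0.90, from a mean of 16.0 to 37.0. The 10 tested targets of YAP and TEAD, Ccn2 among them, had a median of 0.0026. Counts of members below 0 can be set against all tested named genes, of which 54.4% were below 0. Of 16 tested Hox genes 15 were (median of -0.18), as were all 7 tested olfactory and vomeronasal receptors (-0.22) and 8 of 12 serpins (-0.34). Of 69 respiratory chain genes 29 were below 0 (median of 0.10), and of 59 mitochondrial ribosomal protein genes 20 were (0.10). These differences between families were not tested. These medians kept their sign under quantile and median scaling. Over all tested probe sets the median moved with brightness, from -0.08 for untreated signals under 50 to 0.02 for those of 200 or more, and its part in the family medians was not tested.

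Gene length and untreated signal were set beside the calls. The 25 named genes spanned a median of 6297 bp from start to end in the reference annotation, and 16 (64%) were shorter than 10000 bp, against a median of 19777 bp and 29.5% among 5889 tested genes. Ier3 was the shortest at 1199 bp and Sgk1 the longest at 117720 bp. The untreated signal of the called probe sets, with a median of 105, was near that of all tested ones, 89.8; the untreated signal is also part of the test and of its filter. In 7 of the 28, those of Il6, Nr4a2 (both), Sphk1, Rgs2, Tmem214 and Ackr3, all untreated arrays lay at or below the filter signal, as in 1.13% of tested probe sets; these passed the filter through treated arrays.

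The 120 min arrays show where the early rises stood later, with the same untreated arrays as the base of both differences. Of the 28 probe sets 6 were higher at 120 min than at 30 min, 17 were lower and 5 did not pass in that test. Against untreated cells, 13 were higher at 120 min, 5 were lower and 10 did not pass. The 28 had been chosen for high values on the 30 min arrays, so lower values at 120 min follow in part from that choice. The shares of all tested probe sets that passed in these 120 min tests are not given here. Nr4a1 had a mean of 149 ± 34.5 at 120 min, Fos 19.4 ± 1.30 and Sgk1 91.7 ± 7.60 (SD, n = 3 each). In contrast, Il6 had 329 ± 68.6, Cebpd 1676 ± 92.3, Bcl3 421 ± 57.8, Rgs2 89.4 ± 13.5 and Odc1 323 ± 11.5 (SD, n = 3 each).

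The calls varied with the arrays and settings used. Of the 28 probe sets 15, for 13 named genes, were called in all 9 fits without 1 array, and 5 were called under each of the 19 alternatives. Another 9 were lost under no alternative other than the Gapdh covariate. With only the 6 compared arrays in the fit 20 of the 28 were kept and Rgs2, Cebpd, Id2, Slc25a25, Ier2, Atf3, Ackr3 and Pim3 were lost. Of these, Ier2, Atf3 and Pim3 also failed without an intensity trend, Ier2 after quantile normalization, Pim3 with no filter and Ackr3 at an offset of 32. The lowest change of any of the 28 under any alternative was 0.50, so none changed direction.

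**Figure D5:**
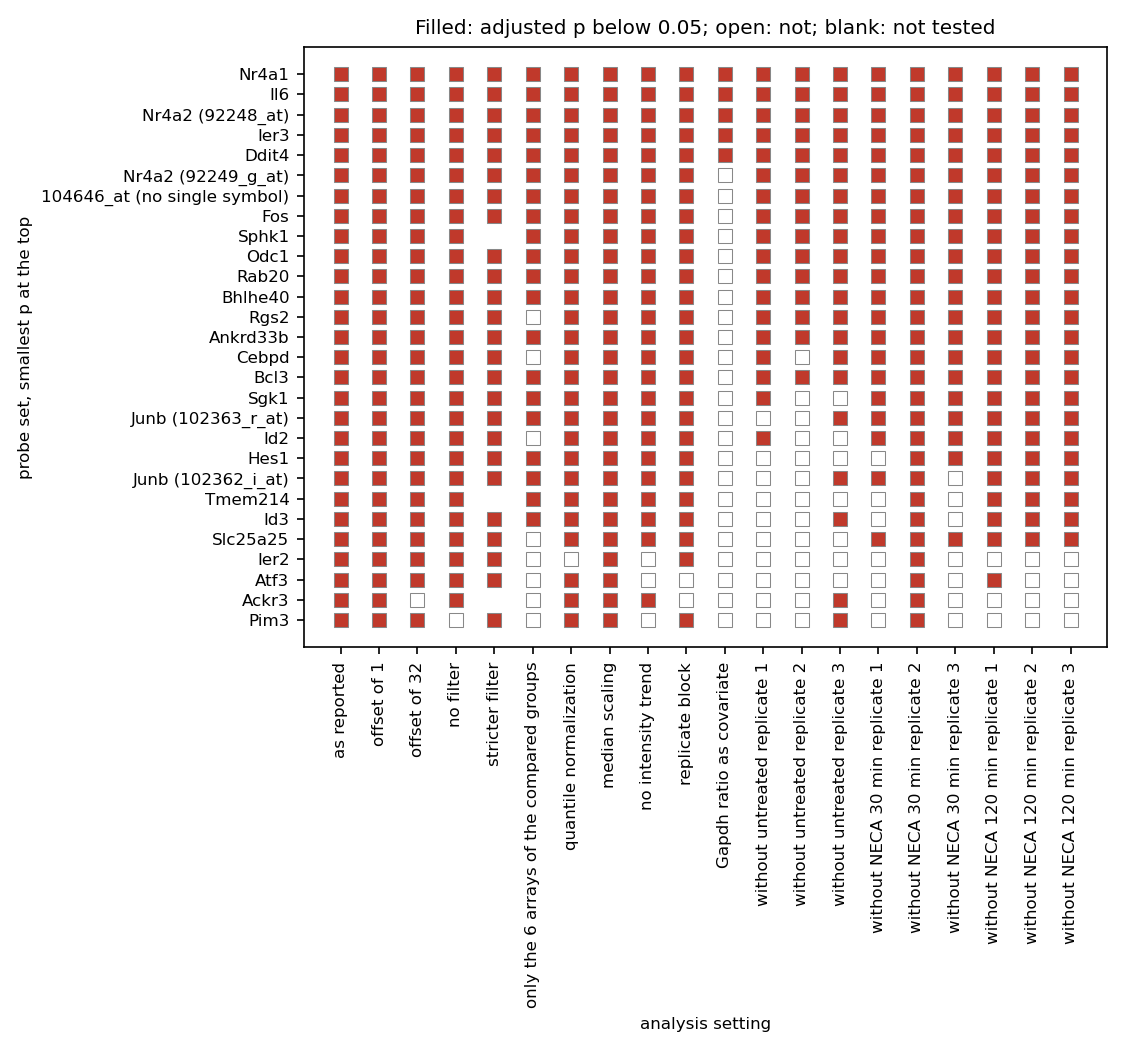
Calls of the 28 probe sets (rows, smallest p at the top) in the fit as reported and under the 19 alternatives (columns), with a filled square for an adjusted p below 0.05, an open square where the test was not passed and a blank where the probe set was not tested. The top 5 rows are filled throughout, the column of the Gapdh covariate is open below them, and most open squares of single left-out arrays lie in the lower rows.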

How the data were processed

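RNA of 9 cultures was hybridised to Affymetrix MG_U74A v2 arrays. The deposited values are linear MAS5 intensities computed by the authors, 1 for each array and probe set, per the submitters' processing notes; the version and the detection calls are not given in the sources used here. Depth has no equivalent on arrays, and the number of arrays limits the precision.

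Groups came from the titles and agent labels; the series describes replicate cultures, so p-values measure the spread between cultures. The deposited intensities were converted to log2(signal + 7.93), with the 25th percentile of the table as offset, and tested if above 20.5, the 40th percentile, in at least 3 of 9 arrays. Tests used limma 3.58.1 in R 4.3.3 (lmFit on 9 arrays, eBayes with an intensity trend, prior of 5.68 degrees of freedom), two-sided, with Benjamini-Hochberg adjustment over 7851 probe sets and a threshold of 0.05. The median SE was 0.18. The fit was tested on simulated data with known changes.

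The 66 control probe sets served for quality checks. Platform annotation gave 1 symbol for 10833 of the other 12422, several for 396 and none for 1193; it can be old, and 10817 gene IDs were found in RefSeq (GRCm38.p6). Every gene with 1 symbol that passed is named, with its other probe sets, as are the 10 rises and 10 falls with the smallest p that did not pass and up to 3 members of a list. A called gene is given by its probe set with the smallest p, and list members by their brightest. The comparison, gene lists and tests were chosen with earlier results of these data known. Adenosine receptor genes were not analysed here. Alternatives covered the offset, filter, scaling, arrays in the fit, intensity trend, a replicate block, the Gapdh ratio as a covariate and each array left out.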

Additional observations from a re-analysis of the deposited data

Results flagged for a closer look

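For 31 of the probe sets named above, the change at 120 min differed from the change at 30 min in limma's direct test of the treated groups (adjusted p below 0.05). The values are the change at 120 min minus the change at 30 min, on the log2 scale, and the untreated arrays cancel from this difference. Among the probe sets that rose at 30 min the difference was positive for Il6 2.19, Odc1 0.92, Rgs2 1.41, Cebpd 1.12, Bcl3 1.57 and Ackr3 1.38. It was negative for Nr4a1 -3.18, Nr4a2 on 92248_at -0.92, Ier3 -0.55, Ddit4 -0.75, Nr4a2 on 92249_g_at -1.17, 104646_at -1.58, Fos -4.83, Rab20 -1.07, Ankrd33b -1.41, Sgk1 -2.12, Junb on 102363_r_at -2.12, Hes1 -1.32, Junb on 102362_i_at -2.05, Id3 -1.31, Ier2 -3.26, Atf3 -0.96 and Pim3 -0.74. These probe sets had been chosen for high values at 30 min, and the share of all tested probe sets that passed in this test is not given here. Among the named genes that did not pass at 30 min the difference was Dgat1 1.44, Socs3 2.59, Usp2 1.25 and Procr 1.45, and it was Id1 -0.93, Epha2 -0.76, Ccn2 -4.51 and Per1 -1.70.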

How the results depend on the processing

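With 3 arrays per group and a median SE of 0.18 on the log2 scale, the smallest change that passed was 0.69. Against 28 probe sets higher and 0 lower, the Gapdh ratio as a covariate gave 5 higher. Lower probe sets numbered 2 with no filter on dim signals, and 1 with only the 6 arrays of the compared groups or with no intensity trend. Leaving out 1 array gave 15 to 39 higher and 0 to 46 lower. The cause was not tested; each such fit has 1 array fewer. Offsets of 1 and 32, a stricter filter, quantile normalization and median scaling kept both counts within 1.5 times, with 25 to 29 higher and 0 lower. Same-numbered arrays shared little variation: deviations of same-numbered untreated and NECA 30 min arrays correlated at -0.15, 0.0025 and 0.03. These values cannot show whether same-numbered cultures were handled together. With the number as a replicate block 27 were higher and 0 lower, 26 of them shared with the 28, and Ackr3 and Atf3 did not pass. None of the 28 called changes, nor of the 10 rises and 10 falls named next to them, reversed its direction under the 19 alternatives. Small list medians did change sign: that of the helix-loop-helix and Id genes was 0.07 as reported and -0.01 with the Gapdh covariate.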

Other observations

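The 46 probe sets that were lower in the limma fit without NECA 30 min replicate 2 stand for 38 named genes, chosen here after their values were seen. With that array left out their median change was -0.97, and with all arrays it was -0.65, where none passed. The smallest adjusted p belonged to Matr3, which encodes a nuclear matrix protein that binds RNA, at -1.76 (adjusted p = 0.0022). Its signals were 85.3, 72.9 and 71.8 in untreated and 21.5, 88.1 and 13.0 in NECA replicates 1, 2 and 3. Cbx5, the heterochromatin protein HP1 alpha, was at -1.52 (adjusted p = 0.00342), with signals of 221, 225 and 245 in untreated and 96.3, 259 and 58.0 in NECA replicates 1, 2 and 3. Akr1c13, an aldo-keto reductase, was at -1.17 (adjusted p = 0.0022), with signals of 356, 317 and 363 in untreated and 137, 401 and 162 in NECA replicates 1, 2 and 3. In these genes replicate 2 lay with or above the untreated arrays and the other treated arrays far below them. The set also held the splicing factor gene U2surp at -1.76 (adjusted p = 0.0222) and the fatty acid elongase gene Elovl6 at -1.25 (adjusted p = 0.00806), as well as 3 proteasome genes, Psma4, Psmb7 and Psmd10. With all arrays in the fit, 24 of the 41 tested proteasome genes were above 0 and 17 below, with a median of 0.09. The arrays for which these genes were low are those farther from the untreated group across all probe sets, and the cause was not tested.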
